A study of Mus musculus with 6 samples.

Results

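The genes described here were 5 receptor tyrosine kinases and 1 ligand of growth factor signalling: the platelet-derived growth factor B chain Pdgfb, its receptors Pdgfra and Pdgfrb, the fibroblast growth factor receptors Fgfr1 and Fgfr3, and the epidermal growth factor receptor Egfr. They were chosen by name through the platform annotation, which gave each of the 6 genes 1 probe, out of 203 named genes and 223 probes on the array. The probes were 5H for Pdgfb (Entrez gene 18591), 5I for Pdgfra (18595), 5J for Pdgfrb (18596), 9B for Fgfr1 (14182), 3J for Fgfr3 (14184) and 17J for Egfr (13649). The samples were 6 arrays labelled as control C57Bl/6 mouse (title code HUR wt, which the labels do not explain), with total RNA taken from cryosections of the soleus, a slow postural muscle of the calf. The labels give 1 group and no age, sex or treatment. Whether the arrays stand for separate animals is not stated, so the spread between samples, and each p-value that rests on it, may be partly technical.

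Receptor tyrosine kinases span the cell membrane, pair up when a growth factor binds outside, and phosphorylate each other inside, which starts the Ras-MAP kinase and PI3 kinase cascades. In skeletal muscle these receptors belong largely to cells between and around the fibres. Pdgfra marks fibro-adipogenic progenitors and other fibroblasts, Pdgfrb marks pericytes and smooth muscle cells of vessel walls, and endothelial cells release the PDGF-B chain that draws pericytes to the capillary. Fgfr1 is carried by muscle precursor cells, and Egfr binds EGF and its relatives. In RNA of a whole muscle section, fewer cells of a type and less RNA per cell cannot be told apart.

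The deposited intensities were on a linear scale and had not been brought to a common brightness: array sums ranged from 31.0 to 125.2, and control 4 was the brightest. A background had been subtracted in effect, since 27 to 67 probes of an array lay at or below 0. The size of the most negative intensity of an array was taken as its noise bound, from 0.0018 in control 6 to 0.0087 in control 4, and a value under it has no reliable size. Control 2 stood apart, with 109 probes above its bound against 143 to 166 on the other arrays, so several results that rest on it are also given without it. Markers of muscle fibres were present as the tissue label says: all 7 that the array holds of 9 listed were above the bound on all 6 arrays.

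Detection divided the genes. Egfr, Fgfr1 and Pdgfrb exceeded the noise bound on all 6 arrays, Pdgfb and Pdgfra on 5, and Fgfr3 on 1. Detection on all arrays therefore held for 3 of the 6 genes, and over all 223 probes for 47.5%, so the share among these genes was near that of the array as a whole. Without control 2 the count was 5 of the 6 genes, all but Fgfr3, and 57.8% of the probes. All 6 genes had an intensity above 0 on all arrays, as did 68.6% of the probes.

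Egfr had intensities of 0.0127, 0.0110, 0.0182, 0.0526, 0.0155 and 0.0114 in controls 1 to 6, which is 1.77 to 6.74 times the noise bound. Fgfr1 had 0.0114, 0.0074, 0.0143, 0.0380, 0.0135 and 0.0104, or 1.19 to 5.87 times the bound. Pdgfrb had 0.0103, 0.0086, 0.0142, 0.0465, 0.0184 and 0.0100, or 1.39 to 8.0 times the bound. For each of the 3, control 4 was the highest in intensity, as it was in total signal, and control 2 the lowest and the closest to background. With a stricter bound of 3 scaled median sizes of the negative values, each of them was above background on 5 arrays, all but control 2.

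Pdgfra, the alpha receptor for PDGF, had intensities of 0.0119, 0.0024, 0.0053, 0.0116, 0.0049 and 0.0025. Control 1 was the highest of these, although the summed signal of control 4 was 2.85 times that of control 1. Its ligand Pdgfb had 0.0090, 0.0006, 0.0061, 0.0116, 0.0039 and 0.0023. In control 2 both genes fell under the noise bound, and elsewhere they were at most 3.5 and 2.65 times the bound. With the stricter bound each was above background on 2 arrays, controls 1 and 5.

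Fgfr3, a receptor best known from cartilage, had intensities of 0.0022, 0.0007, 0.0004, 0.0020, 0.0002 and 0.0075. Controls 1 to 5 were all below the noise bound, at 0.09 to 0.65 times its size, and control 6 alone was above it, at 4.17 times. The table was deposited in steps of 0.0001, so rounding alone amounts to 25% of the value in control 5, while for Egfr it is at most 0.45%. The Fgfr3 values of controls 1 to 5 are therefore given only to show where they lie.

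**Figure D1:**
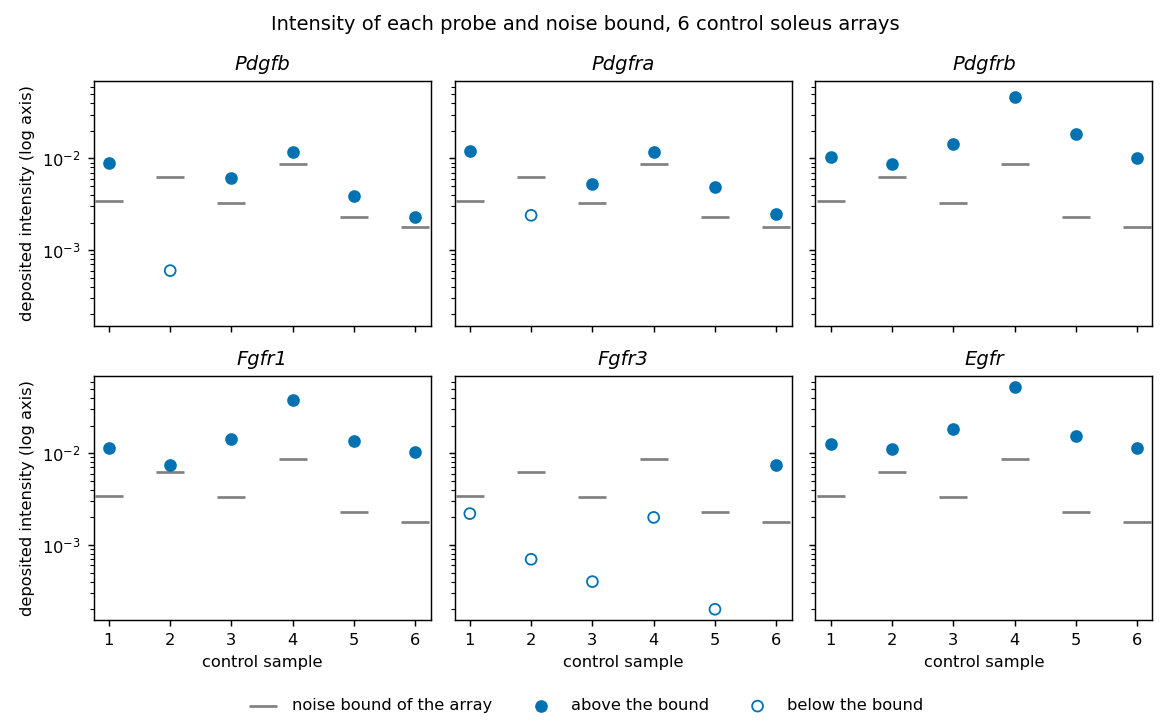
Deposited intensity (log axis) of the probe of each gene in controls 1 to 6, with a grey bar at the noise bound of the array; filled points lie above the bound and open points below it. Egfr, Fgfr1 and Pdgfrb lie above the bound on all 6 arrays, Pdgfb and Pdgfra fall below it in control 2, and Fgfr3 rises above it in control 6 only.

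To compare arrays of unequal brightness, each log2 intensity was set relative to the median of its array over the 152 genes and unnamed probes with an intensity above 0 throughout. This value is called the level. All 6 genes had levels below 0 on every array. Levels are set on the median, so many of the 152 lie below 0 by construction. The share of them below 0 on every array was not taken. A level carries the affinity of its probe, so levels of different genes do not rank their transcripts.

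The level of Egfr was -0.34, -0.38, -0.41, -0.17, -0.41 and -0.49 in controls 1 to 6, with a mean of -0.37 ± 0.11 (SD, n = 6). The 6 samples lay close together, within a 1.25-fold range, and control 4 was the highest. Fgfr1 had levels of -0.50, -0.95, -0.75, -0.64, -0.61 and -0.63 and a mean of -0.68 ± 0.16 (SD, n = 6). Here the range was 1.37-fold, and control 2, where the signal was nearest to its bound, was the lowest. Pdgfrb had levels of -0.64, -0.73, -0.76, -0.35, -0.16 and -0.68 and a mean of -0.56 ± 0.24 (SD, n = 6). It was higher in controls 4 and 5 than in the other 4 samples, within a 1.52-fold range.

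Among the 152, the SD of Egfr ranked 1 from the smallest, that of Fgfr1 ranked 3 and that of Pdgfrb ranked 10. The median SD was 0.54, with quartiles of 0.36 and 0.79. The SD that limma's trend gave for genes of like level was 0.44 for Egfr, 0.46 for Fgfr1 and 0.45 for Pdgfrb, so the 3 genes had 0.24, 0.34 and 0.54 times that spread. Since Egfr and Fgfr1 were known to spread little, the lower tail of limma's F test was looked at as an added check. Its one-sided p was 0.00353 for Egfr, 0.0149 for Fgfr1 and 0.0989 for Pdgfrb, and the adjusted p-values were 0.223, 0.566 and 0.874 (limma, Benjamini-Hochberg). By this check 0% of the 152 were called, with 9 at an unadjusted p under 0.05, so the small spread of these receptors did not pass the test. Leaving out the most distant array lowers the SD of any gene, so it adds no support. It gave 0.06 for Egfr without control 4 and 0.09 for Fgfr1 without control 2.

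Pdgfra had levels of -0.44, -2.57, -2.18, -2.35, -2.07 and -2.68 in controls 1 to 6. Control 1 was the highest, and controls 3 to 6 lay within -2.68 to -2.07, 3.10-fold to 4.75-fold below it. The place of control 2 is not known beyond an upper limit of -1.21, its noise bound, and control 1 was at least 1.70-fold above that bound. The SD over all 6 deposited values was 0.82, close to the 0.83 of genes of like level, and 0.27 over controls 3 to 6. The 0.27 leaves out the most distant array, which lowers the SD of any gene, so it adds no support.

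Pdgfb had levels of -0.84, -4.57, -1.98, -2.35, -2.40 and -2.80. Again control 1 was the highest, 2.21-fold to 3.90-fold above controls 3 to 6, and at least 1.29-fold above the noise bound of control 2. The SD was 1.22, and 0.75 without control 2, whose value has no reliable size. Fgfr3 had levels of -2.87, -4.35, -5.91, -4.89, -6.68 and -1.10, with a nominal SD of 2.05 that rests on 5 values below the bound. Control 6 was at least 1.08-fold above control 2 and at least 2.21-fold to 4.17-fold above the other 4 arrays, when each of these was placed at its bound.

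**Figure D2:**
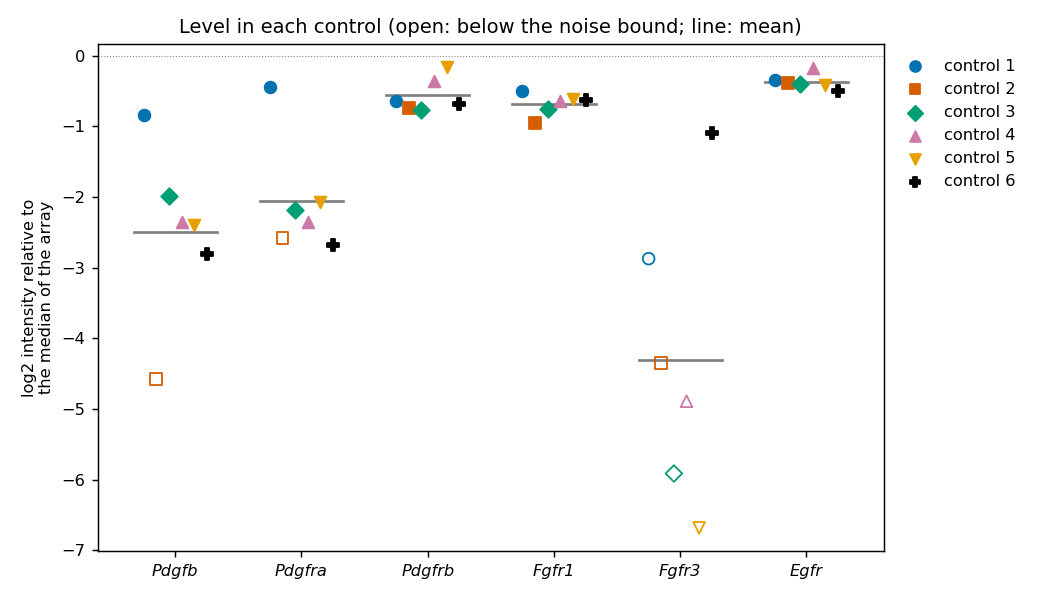
Level of each gene (log2 intensity relative to the array median) in controls 1 to 6, with a line at the mean; open symbols are values below the noise bound. Egfr, Fgfr1 and Pdgfrb form tight groups with SDs of 0.11, 0.16 and 0.24, control 1 lies above the rest for Pdgfra and Pdgfb, and control 6 above the rest for Fgfr3.

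Of the 6 genes 0 passed limma's one-sided F test for more spread than genes of like level, against 1.32% of the 152, and 0 had an unadjusted p under 0.05. Pdgfb came nearest, with an SD 1.31 times that of genes of like level (adjusted p = 0.911 in limma), followed by Fgfr3 with 1.28 times (adjusted p = 0.911 in limma). Dim genes on this array spread widely, and Pdgfb, Pdgfra and Fgfr3 were dim. The pattern of control 1 is therefore a description of the values and was not supported by the test of spread.

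**Figure D3:**
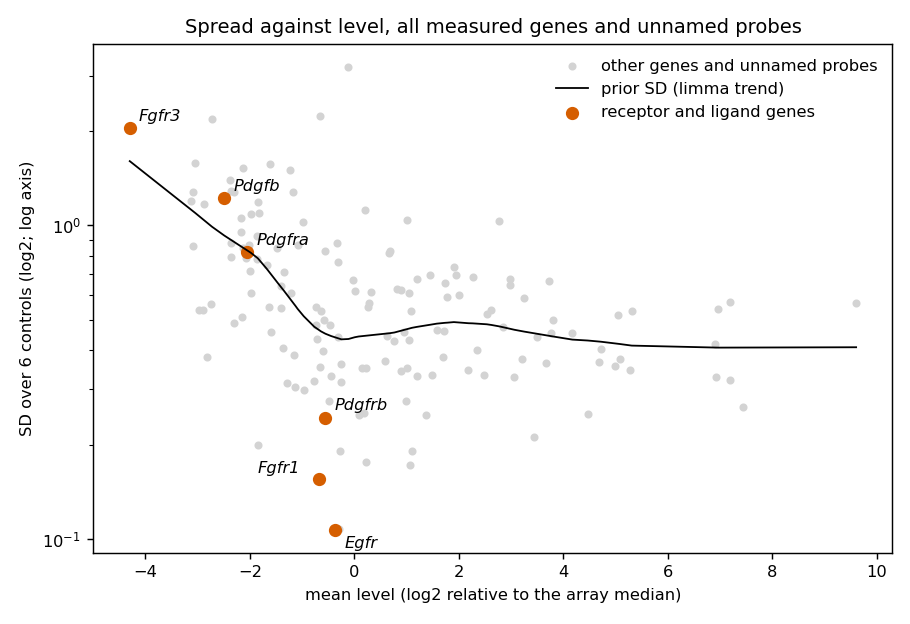
SD over the 6 controls (log axis) against mean level for the 152 genes and unnamed probes, with the SD limma's trend gives at each level as a line. Fgfr3, Pdgfb and Pdgfra lie on or a little above the line at low levels (1.28, 1.31 and 0.99 times its value), and Pdgfrb, Fgfr1 and Egfr lie below it.

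A ratio of 2 genes within an array does not depend on the brightness of that array. Its mean carries the affinities of both probes and says nothing of which transcript is more abundant, but its change from sample to sample can be read. Over all 11476 pairs among the 152, the SD of the log2 ratio had a median of 0.80, and over the 5460 pairs of 105 genes above the bound on all arrays it was 0.59.

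The ratio of Pdgfra to Pdgfrb, the receptors of fibroblasts and of mural cells, was 1.16 in control 1, 0.279 in control 2, 0.373 in control 3, 0.249 in control 4, 0.266 in control 5 and 0.250 in control 6. Control 1 was the highest, and controls 3 to 6 were within 1.5-fold of each other. For control 2 only an upper limit of 0.721 holds, because Pdgfra was below the bound, and this limit is still below control 1. On the log2 scale the ratio was -1.49 ± 0.86 (SD, n = 6), and 54.7% of all pairs had a smaller SD. Over controls 3 to 6 the SD was 0.28, which again leaves out the most distant array and adds no support. The level of Pdgfrb in control 1 was -0.64, within the range of the other samples, so the displaced ratio followed the Pdgfra value.

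The ratio of Fgfr1 to Fgfr3 could be measured on 1 array, control 6, where it was 1.39. In controls 1 to 5 Fgfr3 was below the noise bound, and the ratio was at least 3.35, 1.19, 4.33, 4.37 and 5.87. Control 6 was thus lower than the limits of controls 1, 3, 4 and 5, and not separable from control 2. With the values as deposited the log2 ratio was 3.62 ± 2.02 (SD, n = 6), of which the size is set by background readings. With intensities raised to the bound it was 1.54 with an SD of 0.95. Fgfr1 itself was within 1.37-fold throughout, so the ratio followed the Fgfr3 probe.

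The ratio of the receptor Pdgfra to the ligand Pdgfb varied little on the 5 arrays where both exceeded the noise bound. In controls 3, 4 and 6 these were dim readings, at 1.28 to 1.85 times the noise bound and under the stricter bound. Pdgfra to Pdgfb was 1.32 in control 1, 0.869 in control 3, 1.00 in control 4, 1.26 in control 5 and 1.09 in control 6, and both genes were below the bound in control 2. With all 6 arrays the log2 ratio had an SD of 0.79, and 49.3% of all pairs had a smaller SD. Without control 2 the SD was 0.25, for which no share of other pairs was taken. In control 4 both probes were deposited at the same intensity, 0.0116. The ratio of Pdgfb to Pdgfrb, the ligand and its receptor on mural cells, had a log2 SD of 1.21, and 0.86 without control 2.

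The steadiest pair was Fgfr1 and Egfr. Their ratio ranged over 1.36-fold, with a log2 mean of -0.31 ± 0.18 (SD, n = 6), and 0.93% of all pairs had a smaller SD. Among pairs above the bound on all arrays this share was 1.74%. Pdgfrb to Egfr had a log2 SD of 0.23, with control 5 at 0.25 and the other samples within 1.13-fold of each other. Pdgfrb to Fgfr1 had an SD of 0.23 as well, and for these pairs 2.27% and 2.34% of all pairs had a smaller SD. Small SDs of both genes give a small SD of their ratio: for Fgfr1 and Egfr the value for unrelated genes with these SDs is 0.19.

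**Figure D4:**
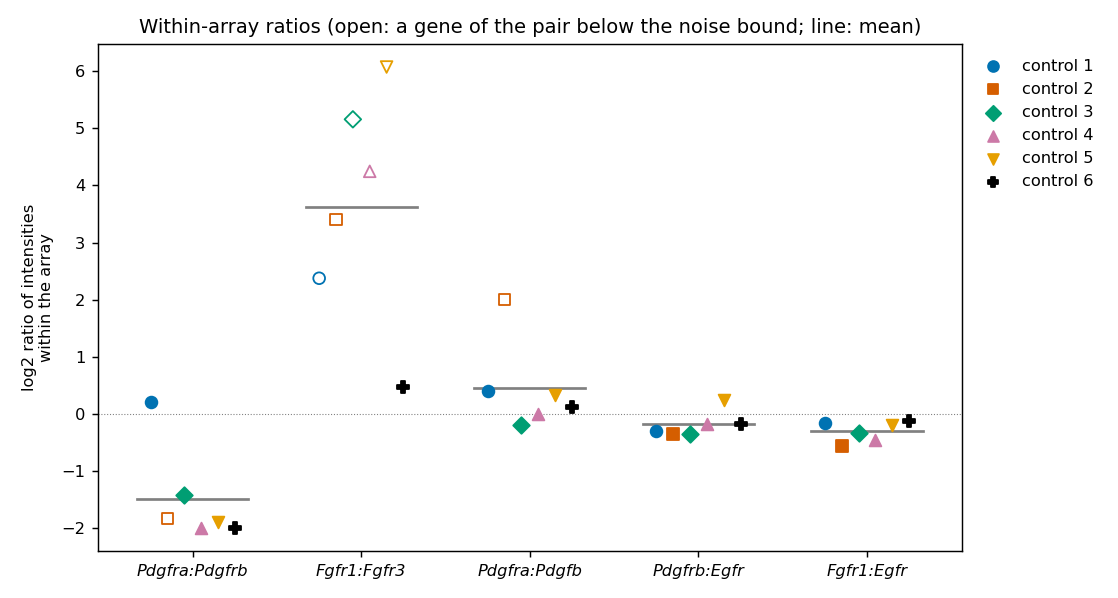
Log2 ratio of intensities within each array for 5 pairs of genes, with a line at the mean; open symbols mark arrays on which a gene of the pair was below the noise bound. Control 1 is the highest for Pdgfra:Pdgfrb, with controls 3 to 6 within 1.5-fold of each other, the Fgfr1:Fgfr3 values of controls 1 to 5 are open, and Fgfr1:Egfr keeps within 1.36-fold.

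Over the 6 samples, levels of the genes were compared in all 15 pairs, and 0 pairs passed the exact permutation test after adjustment, with 1 at an unadjusted p under 0.05. That pair was Pdgfb and Fgfr1, with Pearson's r = 0.864 (two-sided exact permutation p = 0.0458, adjusted p = 0.688) and Spearman's rho = 0.486 (exact p = 0.356, adjusted p = 0.985). Leaving out control 2 alone, where Pdgfb was below the bound, gave r = 0.528. When the 2 samples most distant from the Pdgfb median, controls 1 and 2, were left out, r turned to -0.78. With values raised to the bound r was -0.15, so the relation did not hold. For Pdgfra and Pdgfb, r was 0.765 (exact permutation p = 0.125, adjusted p = 0.938) and rho 0.771 (exact p = 0.103, adjusted p = 0.985). Leaving out controls 1 and 6 gave r = 0.836, and with values raised to the bound r was 0.965 (exact permutation p = 0.00556, adjusted p = 0.0833). Both genes were below the bound in control 2, so that setting gave them the same level there, -1.21. This shared level lay above those of all other arrays but control 1, so the 0.965 is no check of the relation. Without control 2, r was 0.966 (exact permutation p = 0.0333, adjusted p = 0.5), and without control 1 it was 0.612. The r values of 0.765, 0.836 and 0.612 include control 2, where neither reading has a reliable size. The paralogues did not pass the test either. For Pdgfra and Pdgfrb, r was -0.01 (exact permutation p = 0.992, adjusted p = 0.992) and rho 0.371 (exact p = 0.497, adjusted p = 0.985). Leaving out controls 1 and 6 gave r = 0.538, with the Pdgfra reading of control 2, below its bound, still included. For Fgfr1 and Fgfr3, r was 0.229 (exact permutation p = 0.664, adjusted p = 0.979) and rho 0.143 (exact p = 0.803, adjusted p = 0.985). Leaving out controls 1 and 2 gave r = 0.252. Since 5 of the 6 Fgfr3 values lay below the bound, this pair has almost no measured values behind it, and with values raised to the bound r was -0.38. The smallest p that the 720 pairings can give is 0.00139. The labels name no batch within which to repeat a relation.

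The other probes of these families were likewise measured in part. Fgfr2, a further FGF receptor, was above the bound on all 6 arrays, with levels of 2.89, 1.59, 1.76, 1.81, 1.20 and 1.41 (SD 0.59, adjusted p = 0.921 in limma). Control 1 was the highest for Fgfr2 as for Fgfr1, Pdgfra and Pdgfb. These were 3 of the 6 genes, and of the 152 it held for 33.6%. Egf, the ligand of Egfr, was above the bound on 5 arrays, with levels of -0.87, -1.57, -1.42, -1.10, -0.81 and -1.0 (SD 0.31). The ligands Pdgfa and Fgf2 and the receptor Fgfr4 were above the bound on 0 arrays. Of 69 ligands, receptor kinases and cascade genes listed, the array held 13, these 5 among them. The 8 measured had a median SD of 0.38, against 0.54 for the 152. Of the 8, 0 passed limma's test for excess spread and 0 had an unadjusted p under 0.05, against 1.32% and 9 of the 152, so the count says nothing particular of the list.

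The genes most like each receptor over the 6 samples were sought among 99 other named genes above the bound on all arrays. They are given as a description, since the highest of many values were picked and 6 samples of shared arrays lie behind each. For Egfr these were the laminin chain Lamb2 (Pearson's r = 0.865), the angiotensin-converting enzyme Ace (0.731) and the protease inhibitor Timp3 (0.727), with Spearman's rho of 0.429, 0.943 and 1.00. For Fgfr1 they were the integrin subunit Itgb5 (r = 0.878), the matrix glycoprotein Tnxb (0.799) and the IGF binding protein Igfbp6 (0.749). Without control 2 these fell to 0.442, 0.595 and 0.014. For Pdgfrb they were the ephrin Efnb1 (r = 0.708), Igf1 (0.623) and the cytokine receptor Csf2rb2 (0.595), and without control 5 r was 0.561, -0.33 and 0.437. With any 1 sample left out, the lowest r with Egfr was 0.225 for Lamb2, 0.630 for Ace and 0.579 for Timp3. For Igfbp6 and Igf1 the likeness thus rested on 1 sample, and in large part also for Lamb2 and Itgb5, which fell to 0.225 and 0.442.

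Markers of the cells that carry these genes were few on the array. Of 10 fibroblast markers it held Pdgfra and the matrix protein Fn1. Fn1 had levels of 3.01, 2.24, 2.10, 2.29, 2.58 and 1.86. Control 1 was thus the highest for Fn1, the only marker of this list apart from Pdgfra itself. Summed intensities of the list ran from 0.0607 to 0.308, with 0.142 in control 1. Of the 7 muscle fibre markers 4 were highest in control 1 as well: the fast myosins Myh1 (5.41, against 4.40 to 4.65), Myh2 (5.58, against 4.62 to 5.23) and Myh4 (3.72, against 3.16 to 3.67), and the filament gene Des (4.88, against 3.67 to 4.53). The slow myosin Myh7, the myoglobin gene Mb and the titin gene Ttn were highest in control 2, at 7.67, 7.71 and 5.13. In control 1 they had 7.34, 6.72 and 4.86. Among all 152, control 1 was the highest for 33.6%. Of 11 markers of pericytes and smooth muscle the array held Pdgfrb alone. Of 9 endothelial markers it held 6, including Pdgfb. Their mean level was -0.63 in control 2, but Pdgfb (-4.57) and Tek were below the noise bound there, so this mean has no reliable size. Among the other arrays it ran from -0.24 in control 1, the lowest, to 0.06 in control 5. Summed intensities of the 6, which carry the brightness of the array, ran from 0.105 to 0.489. The adhesion molecule Pecam1 had its lowest level, 0.96, in control 1, against 1.14 to 2.94 in the other samples, as did Cdh5 (1.05) and the VEGF receptor Flt1 (-1.33). The angiopoietin receptor Tek had -1.60 in controls 1 and 4 and -2.12 to -1.87 in the others. The VEGF receptor Kdr had 0.30 in control 1 and 0.07 to 0.53 elsewhere. None of the 6 had all its readings below the noise bound. The part of cell makeup in the values of control 1 was not tested. Of adipocyte markers 3 of 6 were on the array and of satellite cell markers 3 of 5, with control 1 the highest for 0 measured members of either list, and of blood and nerve markers 0.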

How the data were processed

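Total RNA (3 µg per array, per the labels) was measured on 6 arrays. The deposited table held 1 intensity per probe and array. How it was scanned, corrected for background and scaled is not stated in the labels or the table, so their effect on dim probes is unknown. The platform annotation gave 1 gene for 205 probes, several for 0 and none for 18. All 6 genes were found by Entrez number in the GRCm38.p6 gene table, used for names only. No array build is named, so no coordinates are given.

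Only probes that stayed above 0 in each of the 6 samples entered the levels; intensities were brought to log2, probes of 1 gene were averaged, and arrays were centred on their median over the resulting 152. Excess spread was tested in R 4.3.3 (limma 3.58.1, statmod 1.5.0) as a one-sided F test of each variance against a robust, trended prior (6.12 degrees of freedom), Benjamini-Hochberg adjusted across the 152 and called at 0.05. The script was run on simulated data with a far larger planted spread, which does not measure its power at the spreads seen here. Relations were tested by exact permutation with scipy 1.17.1 ranks and numpy 2.4.6. Named besides the 6 genes were the 3 most correlated genes of each one above the bound throughout, PDGF, FGF and EGF family genes, and measured fibroblast, mural and endothelial markers. The members and lists were chosen with earlier results of these data known. Alternatives covered the noise bound, centring, quantile normalization, filters, the prior and each replicate left out. The number of arrays limits the precision.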

Additional observations from a re-analysis of the deposited data

Results flagged for a closer look

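In 6 of the 21 sets of values checked (6 levels and 15 within-array log2 ratios), the gap between the most distant sample and its neighbour exceeded Dixon's 95% critical value for 6 samples. For normal values chance gives this in about 1 in 20 sets, and the sets share genes, so the 6 are not independent. Several of the sets hold readings below the noise bound. The rule was not run on other genes or pairs, so the count does not show more outliers here than elsewhere on the array. For Pdgfra, control 1 was far above the others, with a level of -0.44. The same sample stood apart in 3 ratios that contain Pdgfra, with log2 values of 0.21 for Pdgfra to Pdgfrb, 0.062 for Pdgfra to Fgfr1 and -0.094 for Pdgfra to Egfr. These 4 rest on how control 2 is treated, where Pdgfra was below its noise bound. With values raised to the bound the gap was below the critical value in all 4. Without control 2 it was above the value for 5 samples for the level of Pdgfra and for Pdgfra to Pdgfrb and to Egfr, and below it for Pdgfra to Fgfr1. For Pdgfra to Pdgfb, control 2 was far above the others with a log2 ratio of 2.00, and both genes were below the noise bound there. For Pdgfrb to Egfr, control 5 was far above the others with a log2 ratio of 0.25, on signals 8.0 and 6.74 times the noise bound, and this gap was below the critical value for 5 samples without control 2.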

How the results depend on the processing

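No paired analysis was possible because the labels give 1 group. Of the 6 genes, 3 were above background on all arrays, against 47.5% of the probes. The count was 5, against 57.8%, without control 2, left out after its values were seen. It was 6, against 68.6%, when any intensity above 0 was taken as signal. With the stricter noise bound it was 0. No share over all probes was taken at that bound, so the 0 says nothing particular of these genes. None of the 6 passed for excess spread under any alternative run, including each replicate left out. Among all genes tested, the 2 calls became 0 after quantile normalization, with the noise-bound filter (which leaves out Pdgfb, Pdgfra and Fgfr3) and with a plain prior, and 1 with values raised to the bound or with the filter of 4 arrays; with a replicate left out the count was 0 (without control 2) to 2. The mean log2 ratio of Pdgfra to Pdgfrb ranged from -1.84 to -1.39 with a replicate left out, and its SD from 0.24 (without control 1) to 0.96. It was -1.27 (SD 0.93) with values raised to the bound and -1.01 (SD 0.64) with the bound added to both intensities. The mean log2 ratio of Fgfr1 to Fgfr3 was 1.54 (SD 0.95) with values raised to the bound, and its SD was 0.86 with the bound added to both intensities. Without centring, 4 relations between genes passed the exact permutation test against 0 with it; these levels carry the brightness of each array. Signal over background limits the values of Fgfr3 in controls 1 to 5 and those of Pdgfra and Pdgfb in control 2.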
